A study of Homo sapiens with 12 samples.

Results

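The genes described here are 37 interferon-stimulated and antigen presentation genes, taken by name from a list and followed across 2 colon cancer cell lines in which only the mutant or only the wild-type allele of a PI3K catalytic subunit had been left. Of the 37 listed genes, 34 were measured by at least 1 array transcript cluster (the group of probes that reports a transcript) annotated to that gene alone, out of 18377 such genes on the array. The listed DDX58 was found under its current symbol RIGI. GBP1 was left out because its cluster names several genes, and 2 further listed genes were not analysed here. Where a gene had several clusters, that with the top average level across arrays was taken; this applied to PSMB8, PSMB9, TAP1, TAP2, TAPBP and HLA-DPB1, each with 3.

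HCT116 and DLD1 are established human colorectal cancer cell lines, and the mutation in the PI3K allele differs between them. By the sample labels it is H1047R in HCT116 and E545K in DLD1. The groups were HCT116 wild-type-only (the mutant allele knocked out), HCT116 mutant-only (the wild-type allele knocked out), DLD1 wild-type-only and DLD1 mutant-only, so every group had lost 1 allele and unedited parental cells were not part of the comparison. All cells had been starved in McCoy's medium with 0.5% serum for 19 h, and 500 ng of total RNA per sample went onto Affymetrix gene arrays. Each group held 3 arrays labelled as biological replicates of a single derived line, so a difference between genotypes is also a difference between 2 derived lines. The labels do not say how the replicate cultures were separated, and p-values measure the spread between these arrays.

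Type I interferons signal through their receptor and Janus kinases to STAT proteins, which join IRF9 and bind interferon-stimulated response elements (ISREs) in the promoters of antiviral genes. Interferon-gamma acts mainly through STAT dimers at gamma-activated sites (GAS) and raises the machinery of antigen presentation: proteasome subunits such as PSMB8 and PSMB9 cut peptides, TAP1 and TAP2 carry them into the endoplasmic reticulum, tapasin (TAPBP) loads them, and beta-2-microglobulin (B2M) is the light chain of class I molecules. Epithelial cells express many of these genes at a basal level without added interferon.

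Start regions were available in RefSeq (GRCh38.p14) for 30 of the 37 genes, as 39 windows running from 250 bases before to 50 bases after a transcript start. The ISRE-like core (GAAA, any 2 bases, then GAAA), searched on both strands, was present in 20 of the 30 genes (66.7%), against 4.38% of all 27305 genes with a window. By window, 24 of 39 (61.5%) held it, against 3.57% of 35116. The GAS-like core TTCNNNGAA, which reads the same on both strands, was present in 8 of the 30 genes (26.7%), against 9.38% of all genes. Both searches were made separately, and matches to the same core may overlap. The match is a description of the letters in the window and does not show that a factor binds there.

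The windows of the members that changed between genotypes and hold an ISRE-like match are shown first. Each is written 5′ to 3′ on the strand of the gene, with the matched letters in capitals (the ISRE-like core or its reverse complement). ISG15 (chr1:1013247-1013546, plus strand) has 2 overlapping matches, and IFIT3 (chr10:89327747-89328046 and chr10:89332279-89332578, plus strand) has 2 matches in each of 2 windows. TAPBP (chr6:33314029-33314328, minus strand) has 2 overlapping matches close to its start.
ISG15: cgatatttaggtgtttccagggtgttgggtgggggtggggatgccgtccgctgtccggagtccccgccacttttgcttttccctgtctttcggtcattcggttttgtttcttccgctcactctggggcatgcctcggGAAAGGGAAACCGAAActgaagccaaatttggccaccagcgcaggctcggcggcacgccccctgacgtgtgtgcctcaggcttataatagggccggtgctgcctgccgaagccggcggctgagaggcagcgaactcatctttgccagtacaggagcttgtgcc
IFIT3, first start: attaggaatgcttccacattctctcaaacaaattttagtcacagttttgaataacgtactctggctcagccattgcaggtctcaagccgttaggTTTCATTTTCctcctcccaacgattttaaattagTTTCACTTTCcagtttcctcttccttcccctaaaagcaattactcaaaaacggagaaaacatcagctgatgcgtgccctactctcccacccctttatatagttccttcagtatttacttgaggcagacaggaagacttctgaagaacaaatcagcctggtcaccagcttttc
IFIT3, second start: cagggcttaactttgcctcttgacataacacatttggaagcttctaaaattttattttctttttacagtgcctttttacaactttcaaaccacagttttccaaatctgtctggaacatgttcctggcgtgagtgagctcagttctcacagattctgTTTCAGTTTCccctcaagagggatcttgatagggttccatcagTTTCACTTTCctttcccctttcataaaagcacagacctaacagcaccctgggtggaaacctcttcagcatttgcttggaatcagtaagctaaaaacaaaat
TAPBP: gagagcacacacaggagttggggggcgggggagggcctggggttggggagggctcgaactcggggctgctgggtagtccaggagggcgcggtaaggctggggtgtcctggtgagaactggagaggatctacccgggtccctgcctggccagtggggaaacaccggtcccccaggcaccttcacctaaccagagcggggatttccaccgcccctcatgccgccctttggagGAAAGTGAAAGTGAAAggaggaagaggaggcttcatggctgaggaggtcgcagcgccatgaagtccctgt

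Some members share a start region. PARP9 (chr3:122564251-122564550, minus strand) and DTX3L (chr3:122564088-122564387, plus strand) are read in opposite directions from overlapping windows, and the single match is the same 10 bases for both, at chr3:122564332-122564341. PSMB9 (chr6:32853942-32854241, plus strand) and TAP1 (chr6:32853655-32853954, minus strand) also lie head to head. The 2 overlapping matches of TAP1 fall outside the 300 bases of the PSMB9 window, which holds no match. PARP9 (chr3:122564735-122565034) and TAP1 (chr6:32852712-32853011) also have another window, not printed here, without an ISRE-like match. That other TAP1 window holds a GAS-like match.
PARP9: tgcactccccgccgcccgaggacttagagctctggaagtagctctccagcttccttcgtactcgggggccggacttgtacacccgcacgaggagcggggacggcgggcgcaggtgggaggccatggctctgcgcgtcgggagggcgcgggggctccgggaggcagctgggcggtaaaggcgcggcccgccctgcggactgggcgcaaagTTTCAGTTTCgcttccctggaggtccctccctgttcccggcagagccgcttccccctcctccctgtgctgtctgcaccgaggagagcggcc
DTX3L: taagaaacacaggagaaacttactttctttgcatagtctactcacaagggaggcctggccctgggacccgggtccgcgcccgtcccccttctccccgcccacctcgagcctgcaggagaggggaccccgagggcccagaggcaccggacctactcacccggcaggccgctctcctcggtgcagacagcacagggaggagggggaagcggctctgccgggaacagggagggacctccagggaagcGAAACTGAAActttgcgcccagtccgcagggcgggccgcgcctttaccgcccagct
TAP1: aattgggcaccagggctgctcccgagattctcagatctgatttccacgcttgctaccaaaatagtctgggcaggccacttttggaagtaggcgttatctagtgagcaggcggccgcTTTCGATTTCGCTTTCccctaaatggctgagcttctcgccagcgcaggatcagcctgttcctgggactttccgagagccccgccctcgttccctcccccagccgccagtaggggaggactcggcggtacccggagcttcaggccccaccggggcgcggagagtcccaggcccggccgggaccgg
PSMB9: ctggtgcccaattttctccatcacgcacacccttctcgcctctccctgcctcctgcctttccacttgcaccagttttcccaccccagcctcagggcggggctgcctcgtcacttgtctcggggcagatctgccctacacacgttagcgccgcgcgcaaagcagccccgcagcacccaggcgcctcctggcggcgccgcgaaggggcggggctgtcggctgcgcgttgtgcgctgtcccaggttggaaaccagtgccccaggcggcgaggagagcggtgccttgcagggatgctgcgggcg

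The other 2 genes that changed between genotypes and have a window, OAS1 and HLA-DPB1, hold no ISRE-like match in it. The OAS1 window holds a GAS-like match that begins at position -168 from the start. It also holds gaaacgaaa, in which the GAAA repeats lie closer together than the searched core allows, so the search could not count it. MX2, which also changed, has no window in the table. In HCT116, 2 of the 19 measured members with an ISRE-like match and 1 of the 9 without it fell between genotypes. In DLD1 the counts were 2 of 19 and 2 of 9. Of all genes, 2.14% fell in HCT116 and 3.11% in DLD1 by the same test, and whether the match goes with a fall was not tested.

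All levels below are the deposited log2 values, in which a difference of 1 is a doubling of signal, and levels are compared between samples and not between genes. Array medians lay between 7.42 and 7.53, and arrays of the same group correlated between 0.99515 and 0.99835, both over all 28869 transcript clusters. Of the 34 members, 15 had a mean level below the 40th percentile of all genes (7.57), among them IFIT3, MX2, PSMB8 and HLA-DPB1, and signal over background was not assessed. Of the 7 epithelial markers, 6 lay above that percentile, with EPCAM between 12.28 and 12.57 in the group means. Of 5 leukocyte markers and of 5 fibroblast markers, 4 each lay below it, and the leukocyte marker PTPRC lay between 5.01 and 5.08.

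**Figure D1:**
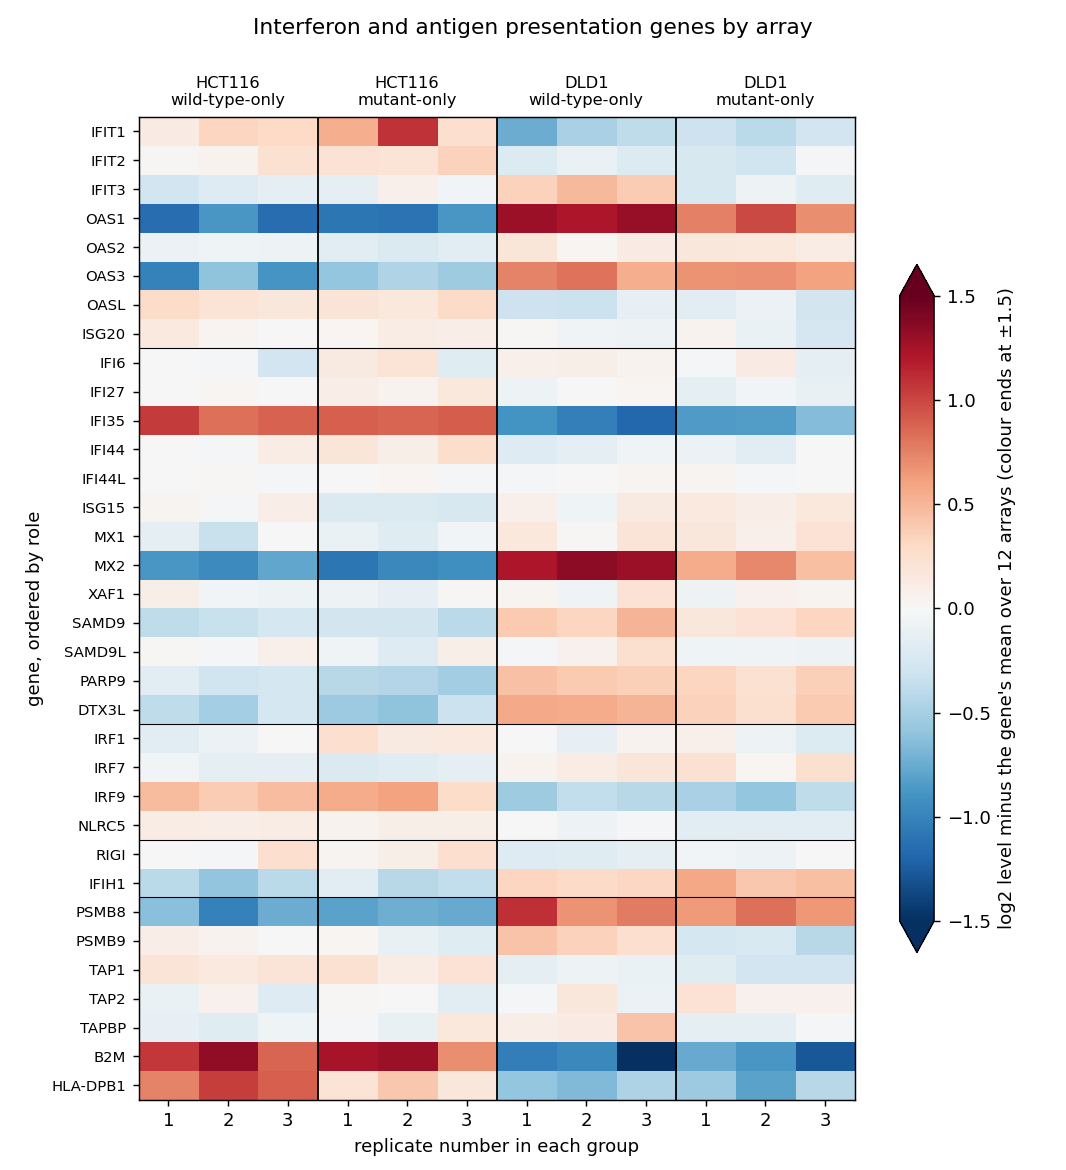
Level of each of the 34 measured genes on each of the 12 arrays, as the log2 value minus that gene's mean over the 12 arrays (red higher, blue lower; colours end at 1.5 in either direction). Columns are replicates 1 to 3 of each group and rows are ordered by role; OAS1, OAS3, MX2, IFI35, PSMB8 and B2M separate the 2 cell lines, and within a line the genotypes differ by less.

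The comparison of mutant-only with wild-type-only cells asked which of these genes differed with the allele that remained. Few did, and every gene that passed the test was lower with the mutant allele. In HCT116, ISG15, PARP9 and HLA-DPB1 fell, 0 members rose and 31 did not pass; the 3 called are 8.82% of the members, against 6.16% of all genes called (4.02% higher and 2.14% lower). In DLD1, IFIT3, OAS1, MX2, PSMB9 and TAPBP fell, 0 members rose and 29 did not pass; the 5 called are 14.7% of the members, against 8.77% of all genes called (5.66% higher and 3.11% lower). The test was limma's moderated test with Benjamini-Hochberg adjustment over all 18377 genes, at an adjusted p under 0.05. In RNA from a whole culture, fewer expressing cells and less RNA per cell cannot be told apart.

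At an unadjusted p under 0.05, 5 members were higher and 4 lower in HCT116 mutant-only cells, 9 of 34 where 18.5% of all genes had such a p (11.3% higher and 7.18% lower). In DLD1 mutant-only cells 2 were higher and 9 lower, 11 of 34 where the share of all genes was 22.3% (13% higher and 9.38% lower). The median change over the 34 members was 0.02 in HCT116, against -0.00 over all genes, and -0.05 in DLD1, against -0.01. In HCT116 the genotypes were separated without overlap of arrays for 9 members, 3 higher and 6 lower in mutant-only cells, where 22% of all genes were separated (12.5% higher and 9.51% lower). In DLD1 they were separated for 13 members, 3 higher and 10 lower, where 28.3% of all genes were (15.6% higher and 12.7% lower).

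**Figure D2:**
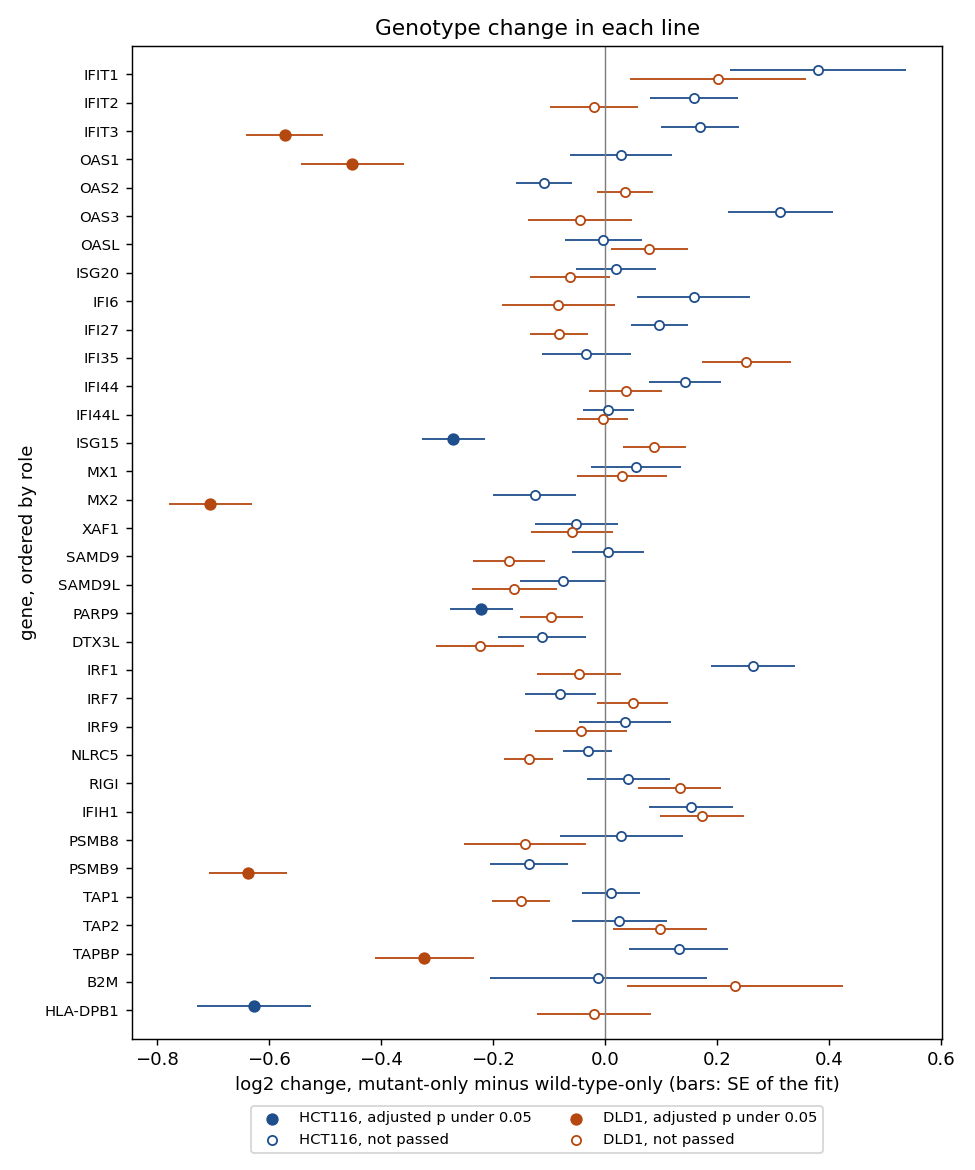
Change between genotypes for each of the 34 genes, mutant-only minus wild-type-only on the log2 scale, in HCT116 and in DLD1; bars are the standard error of the fit and filled points passed at an adjusted p under 0.05. The filled points, 3 in HCT116 and 5 in DLD1, all lie below 0, and no gene is filled in both lines.

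The effectors that act against foreign RNA were lower in DLD1 mutant-only cells for 2 of 8 members and in HCT116 for 0 of 8 (4 of the 8 had an unadjusted p under 0.05, 3 of them higher). The shares of all genes that fell, 3.11% in DLD1 and 2.14% in HCT116, apply to the counts by role here and below. IFIT3, which works with IFIT1 and IFIT2 in recognising viral RNA ends, read 7.26, 7.39 and 7.30 in DLD1 wild-type-only cells and 6.67, 6.84 and 6.73 in mutant-only cells. The 3 mutant-only arrays all lay below the 3 wild-type-only arrays, and IFIT3 fell 1.49-fold (log2 change -0.57, SE 0.069, adjusted p = 0.000156). In HCT116 it read 6.62, 6.72 and 6.78 in wild-type-only cells and 6.78, 6.99 and 6.87 in mutant-only cells, groups that overlap (change 0.17, adjusted p = 0.197).

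OAS1 makes the 2′-5′ oligoadenylates that switch on an antiviral ribonuclease. Its levels were 9.77, 9.70 and 9.79 in DLD1 wild-type-only cells and 9.24, 9.48 and 9.19 in DLD1 mutant-only cells. Every mutant-only array was lower, and OAS1 fell 1.37-fold (log2 change -0.45, SE 0.0918, adjusted p = 0.00778). In HCT116 the levels were 7.35, 7.61 and 7.34 against 7.40, 7.38 and 7.62, and the genotypes overlapped (change 0.03, adjusted p = 0.919).

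Its relative OAS3 did not pass in either line. OAS3 read 8.31, 8.72 and 8.44 in HCT116 wild-type-only cells and 8.75, 8.87 and 8.79 in mutant-only cells, with every mutant-only array higher by a narrow margin. The change of 0.31 missed the threshold (adjusted p = 0.07), and with the replicate number as a block it passed (adjusted p = 0.0115). In DLD1, OAS3 read 10.06, 10.13 and 9.87 against 9.99, 10.01 and 9.92, which overlap.

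IFIT1, which binds viral RNA lacking a host cap methyl mark, had the highest positive change of the 34 members in HCT116, and it did not pass. IFIT1 read 7.73, 7.93 and 7.91 in wild-type-only cells and 8.16, 8.69 and 7.86 in mutant-only cells, where replicate 3 lay among the wild-type-only arrays (change 0.38, SE 0.157, adjusted p = 0.207). Without that replicate it passed (adjusted p = 0.036). IFIT2, OAS2, OASL and ISG20 (an RNA exonuclease) had changes between -0.11 and 0.16 in both lines and did not pass in either.

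Among the other effectors, MX2 fell in DLD1, and ISG15 and PARP9 fell in HCT116, out of 13 measured. MX2 is a dynamin-like GTPase that restricts HIV. It read 8.53, 8.66 and 8.60 in DLD1 wild-type-only cells and 7.87, 8.04 and 7.77 in DLD1 mutant-only cells. The groups did not overlap, and the fall was 1.63-fold (log2 change -0.70, SE 0.0742, adjusted p = 5.15e-05), the largest between genotypes in either line among the 34 clusters used, 1 per member. In HCT116 it read 6.45, 6.36 and 6.54 against 6.23, 6.35 and 6.40, and did not pass (change -0.13, adjusted p = 0.414). Its relative MX1, which acts against influenza virus, changed by 0.06 in HCT116 and 0.03 in DLD1 and did not pass.

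ISG15 is a ubiquitin-like protein that is joined to other proteins after interferon. It read 8.27, 8.21 and 8.32 in HCT116 wild-type-only cells and 8.00, 8.00 and 7.98 in HCT116 mutant-only cells. The mutant-only arrays were nearly identical and all lower, a 1.21-fold fall (log2 change -0.27, SE 0.0559, adjusted p = 0.011). In DLD1 it read 8.30, 8.16 and 8.36 against 8.38, 8.33 and 8.38, which overlap (change 0.09, adjusted p = 0.39).

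PARP9, of the poly(ADP-ribose) polymerase family, and DTX3L, its E3 ubiquitin ligase partner, share the start region printed above. PARP9 read 8.31, 8.17 and 8.21 in HCT116 wild-type-only cells and 8.05, 8.03 and 7.95 in mutant-only cells, all lower, a 1.17-fold fall (log2 change -0.22, SE 0.0562, adjusted p = 0.0341). In DLD1 it read 8.91, 8.87 and 8.83 against 8.80, 8.70 and 8.82, also without overlap, and did not pass (change -0.10, adjusted p = 0.35). The call in HCT116 was lost with the HCT116 arrays fitted alone (adjusted p = 0.0973), without HCT116 wild-type-only replicate 1 (0.143) or 3 (0.0616), without HCT116 mutant-only replicate 1 (0.0616), 2 (0.0688) or 3 (0.121), and without DLD1 mutant-only replicate 1 (0.0507). DTX3L changed by -0.11 in HCT116 (adjusted p = 0.512) and by -0.22 in DLD1 (adjusted p = 0.106). In DLD1 it passed with the replicate block (adjusted p = 0.0205) and with the DLD1 arrays fitted alone (0.0455).

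The remaining effectors, IFI6, IFI27, IFI35, IFI44, IFI44L, XAF1, SAMD9 and SAMD9L, did not pass in either line. IFI35 came nearest, at 7.33, 7.19 and 7.04 in DLD1 wild-type-only cells and 7.37, 7.38 and 7.57 in mutant-only cells (change 0.25, adjusted p = 0.0689). All 3 mutant-only arrays were higher, and it passed without DLD1 wild-type-only replicate 1 (adjusted p = 0.0426). SAMD9 passed in DLD1 after quantile normalization (change -0.22, adjusted p = 0.0493). IFI44L was the flattest, with group means between 5.27 and 5.28, near the bottom of all genes.

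None of the 4 measured transcription factors and regulators and neither of the sensors passed limma's test between genotypes; at an unadjusted p under 0.05 there was 1 factor in each line, and 0 sensors in HCT116 and 1 in DLD1. IRF1, an interferon-gamma target that drives antigen presentation genes, was 8.25 in HCT116 wild-type-only and 8.51 in mutant-only cells on average (change 0.26, adjusted p = 0.0569), with no overlap between the arrays. It passed with dim genes left out (adjusted p = 0.0431), after quantile normalization (0.0424), and without DLD1 mutant-only replicate 1 (0.0387) or 3 (0.0396). NLRC5, the transactivator of class I genes, changed by -0.14 in DLD1 (adjusted p = 0.0761). IRF7, which amplifies interferon production, and IRF9, the DNA-binding partner of the STAT proteins, changed by no more than 0.08 in value in either line. The RNA sensors RIGI and IFIH1 changed by 0.04 and 0.15 in HCT116 and by 0.13 and 0.17 in DLD1.

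In antigen processing and presentation, PSMB9 and TAPBP fell in DLD1 and HLA-DPB1 fell in HCT116, out of 7 measured. PSMB9, an inducible proteasome subunit, read 8.41, 8.32 and 8.23 in DLD1 wild-type-only cells and 7.73, 7.75 and 7.57 in mutant-only cells. The groups did not overlap, and PSMB9 fell 1.56-fold (log2 change -0.64, SE 0.0697, adjusted p = 7.03e-05). In HCT116 it read 8.08, 8.03 and 7.98 against 8.02, 7.87 and 7.81, which overlap (change -0.13, adjusted p = 0.335). The other PSMB9 clusters differed from the one used by at most 0.0136 on any array.

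TAP1, read from the same start region as PSMB9 in the opposite direction, changed by 0.01 in HCT116 and by -0.15 in DLD1, where the arrays did not overlap and the test was missed (adjusted p = 0.0962). After quantile normalization TAP1 passed in DLD1 (-0.20, adjusted p = 0.0331). Its partner TAP2 changed by 0.03 and 0.10, and PSMB8, the other inducible subunit here, by 0.03 and -0.14; neither passed. TAPBP read 11.51, 11.54 and 11.84 in DLD1 wild-type-only cells and 11.26, 11.27 and 11.40 in mutant-only cells, all lower, a 1.25-fold fall (log2 change -0.32, SE 0.0881, adjusted p = 0.037). In HCT116 TAPBP read 11.29, 11.23 and 11.35 against 11.40, 11.30 and 11.57, which overlap (change 0.13, adjusted p = 0.487). The DLD1 call was lost with the DLD1 arrays fitted alone (adjusted p = 0.0539), without HCT116 mutant-only replicate 1 (0.0513), without DLD1 wild-type-only replicate 3 (0.127), and without DLD1 mutant-only replicate 1 (0.125), 2 (0.11) or 3 (0.0503).

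HLA-DPB1 encodes the beta chain of the class II molecule HLA-DP, which presents peptides to CD4+ T cells. It read 7.97, 8.25 and 8.11 in HCT116 wild-type-only cells and 7.43, 7.63 and 7.39 in mutant-only cells. The groups did not overlap, and HLA-DPB1 fell 1.54-fold (log2 change -0.63, SE 0.102, adjusted p = 0.00219). Its other clusters changed by -0.91 and -0.70 in HCT116. In DLD1 it read 6.64, 6.56 and 6.75 against 6.67, 6.41 and 6.80, which overlap (change -0.02, adjusted p = 0.942), and the other clusters changed by 0.23 and -0.00. B2M, the class I light chain, changed by -0.01 in HCT116 and 0.23 in DLD1 and did not pass.

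**Figure D3:**
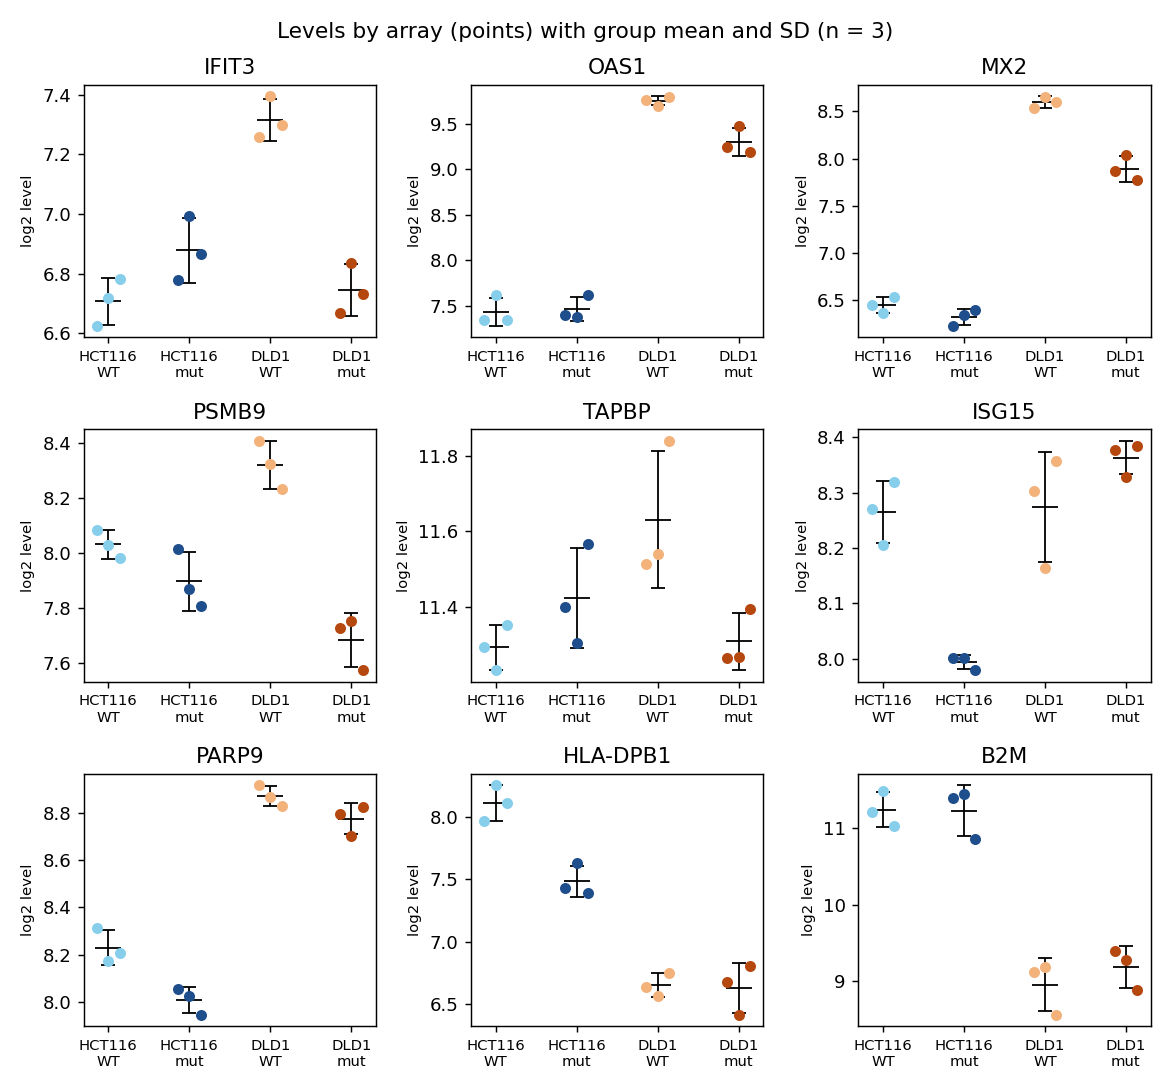
Levels on each array for the 8 genes that passed the test between genotypes in either line and for B2M, as deposited log2 values by group (WT is wild-type-only, mut is mutant-only); points are single arrays and lines are the group mean and SD (n = 3), on an axis of its own for each gene. IFIT3, OAS1, MX2, PSMB9 and TAPBP are lower in DLD1 mutant-only than in DLD1 wild-type-only cells, and ISG15, PARP9 and HLA-DPB1 are lower in HCT116 mutant-only than in HCT116 wild-type-only cells.

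Whether the change between genotypes differed between the lines was tested directly, as the change in HCT116 minus the change in DLD1. The difference passed for 7 of 34 members (20.6%), against 7.11% of all genes (3.68% above 0 and 3.43% below). It was above 0 for IFIT3 (0.74, SE 0.0976, adjusted p = 0.000398), MX2 (0.58, SE 0.105, adjusted p = 0.00397), PSMB9 (0.50, SE 0.0986, adjusted p = 0.00676), OAS1 (0.48, SE 0.13, adjusted p = 0.0408) and TAPBP (0.45, SE 0.125, adjusted p = 0.0435), the genes that fell in DLD1. It was below 0 for HLA-DPB1 (-0.61, SE 0.144, adjusted p = 0.0204) and ISG15 (-0.36, SE 0.0791, adjusted p = 0.0137). PARP9 fell in HCT116, and its difference between lines did not pass (-0.12, adjusted p = 0.466). The difference for OAS3 was 0.36 (adjusted p = 0.139). It passed with the replicate block (adjusted p = 0.0275) and without HCT116 wild-type-only replicate 2 (0.0217).

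The tests for IFIT3, MX2, PSMB9 and ISG15 held whichever array was left out. For OAS1 the difference was lost (adjusted p between 0.0553 and 0.101) without HCT116 wild-type-only replicate 1 or 3, HCT116 mutant-only replicate 1 or 3, any DLD1 wild-type-only replicate, or DLD1 mutant-only replicate 1 or 3. For TAPBP it was lost (between 0.0538 and 0.1) without any HCT116 wild-type-only replicate, HCT116 mutant-only replicate 1 or 3, DLD1 wild-type-only replicate 3, or DLD1 mutant-only replicate 1 or 2, and after quantile normalization (0.0568). For HLA-DPB1 it was lost (between 0.0501 and 0.0525) without HCT116 wild-type-only replicate 2, HCT116 mutant-only replicate 1, DLD1 wild-type-only replicate 1 or 2, or DLD1 mutant-only replicate 1 or 3.

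The cell lines differed from each other in most of these genes, whichever allele remained. Between wild-type-only cells, 10 members were higher and 14 lower in HCT116 than in DLD1 (70.6%), against 48.8% of all genes called (23.3% higher and 25.5% lower). Between mutant-only cells, 14 were higher and 12 lower (76.5%), against 50.6% (24.3% higher and 26.3% lower). The arrays of the lines did not overlap for 11 members higher and 15 lower in HCT116 between wild-type-only cells, where 54.8% of all genes did not overlap (26.6% higher and 28.1% lower). Between mutant-only cells this held for 14 members higher and 13 lower, where the share of all genes was 57.8% (28.9% in each direction). These comparisons use the same arrays as those between genotypes. In both genotypes HCT116 was higher for 9 members (IFIT1, IFIT2, OASL, IFI35, IRF9, NLRC5, TAP1, B2M and HLA-DPB1) and lower for 11 (OAS1, OAS2, OAS3, MX1, MX2, SAMD9, PARP9, DTX3L, IRF7, IFIH1 and PSMB8). IFI6, IFI44L, XAF1, SAMD9L and TAP2 passed in neither comparison. With the replicate block IFI6 passed between wild-type-only cells (-0.18, adjusted p = 0.0341) and TAP2 between mutant-only cells (-0.17, adjusted p = 0.0405). Left-out arrays ended the NLRC5 call between wild-type-only cells (0.0528 and 0.0535 without HCT116 wild-type-only replicates 1 and 3, 0.0874 without DLD1 wild-type-only replicate 2), as did quantile normalization (0.106). The IFIT2 call there was lost when replicate 3 of HCT116 wild-type-only was left out (0.0553), and the MX1 call between mutant-only cells without HCT116 mutant-only replicate 2 (0.0558) or DLD1 mutant-only replicate 3 (0.0537).

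The 6 members with the largest differences between wild-type-only lines were OAS1, B2M, MX2, IFI35, PSMB8 and OAS3. With the levels given above, OAS1 was 4.99-fold lower in HCT116 wild-type-only than in DLD1 wild-type-only cells (log2 difference -2.32, adjusted p = 8.53e-11) and 3.58-fold lower between mutant-only cells. MX2 was 4.43-fold lower (log2 difference -2.15, adjusted p = 2.1e-11) and 2.96-fold lower, respectively. OAS3 was 2.89-fold lower (log2 difference -1.53, SE 0.0934, adjusted p = 7.98e-09) and 2.26-fold lower. The fall of OAS1 and MX2 in DLD1 mutant-only cells was small beside the gap between the lines, whose arrays did not overlap in either genotype.

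PSMB8 read 6.53, 6.14 and 6.41 in HCT116 wild-type-only, 6.35, 6.41 and 6.40 in HCT116 mutant-only, 8.24, 7.82 and 7.93 in DLD1 wild-type-only and 7.79, 7.98 and 7.81 in DLD1 mutant-only cells. Every HCT116 array lay below every DLD1 array, by 3.12-fold on average between wild-type-only cells (log2 difference -1.64, SE 0.109, adjusted p = 1.96e-08). Its partner PSMB9 did not follow this order. PSMB9 was lower in HCT116 between wild-type-only cells (-0.29, adjusted p = 0.00311) and higher in HCT116 between mutant-only cells (0.21, adjusted p = 0.0201), the only member called in opposite directions in this fit. The call between mutant-only cells was lost after quantile normalization (0.113) and without HCT116 mutant-only replicate 1 (0.105) or DLD1 mutant-only replicate 3 (0.0984).

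B2M went the other way. It read 11.22, 11.49 and 11.03 in HCT116 wild-type-only, 11.40, 11.45 and 10.86 in HCT116 mutant-only, 9.12, 9.19 and 8.56 in DLD1 wild-type-only and 9.40, 9.28 and 8.88 in DLD1 mutant-only cells. Replicate 3 was the lowest array in all 4 groups, and every HCT116 array still lay above every DLD1 array, by 4.88-fold between wild-type-only cells (log2 difference 2.29, SE 0.193, adjusted p = 2.31e-07) and by 4.12-fold between mutant-only cells (adjusted p = 7.02e-07).

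IFI35, an interferon-induced leucine zipper protein, read 9.27, 9.05 and 9.11 in HCT116 wild-type-only cells and 9.12, 9.09 and 9.12 in HCT116 mutant-only cells, above all 6 DLD1 arrays given earlier. It was 3.88-fold higher between wild-type-only cells (log2 difference 1.96, SE 0.0794, adjusted p = 1.09e-10). HLA-DPB1 was 2.75-fold higher in HCT116 between wild-type-only cells (log2 difference 1.46, adjusted p = 3.2e-08) and 1.80-fold higher between mutant-only cells.

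**Figure D4:**
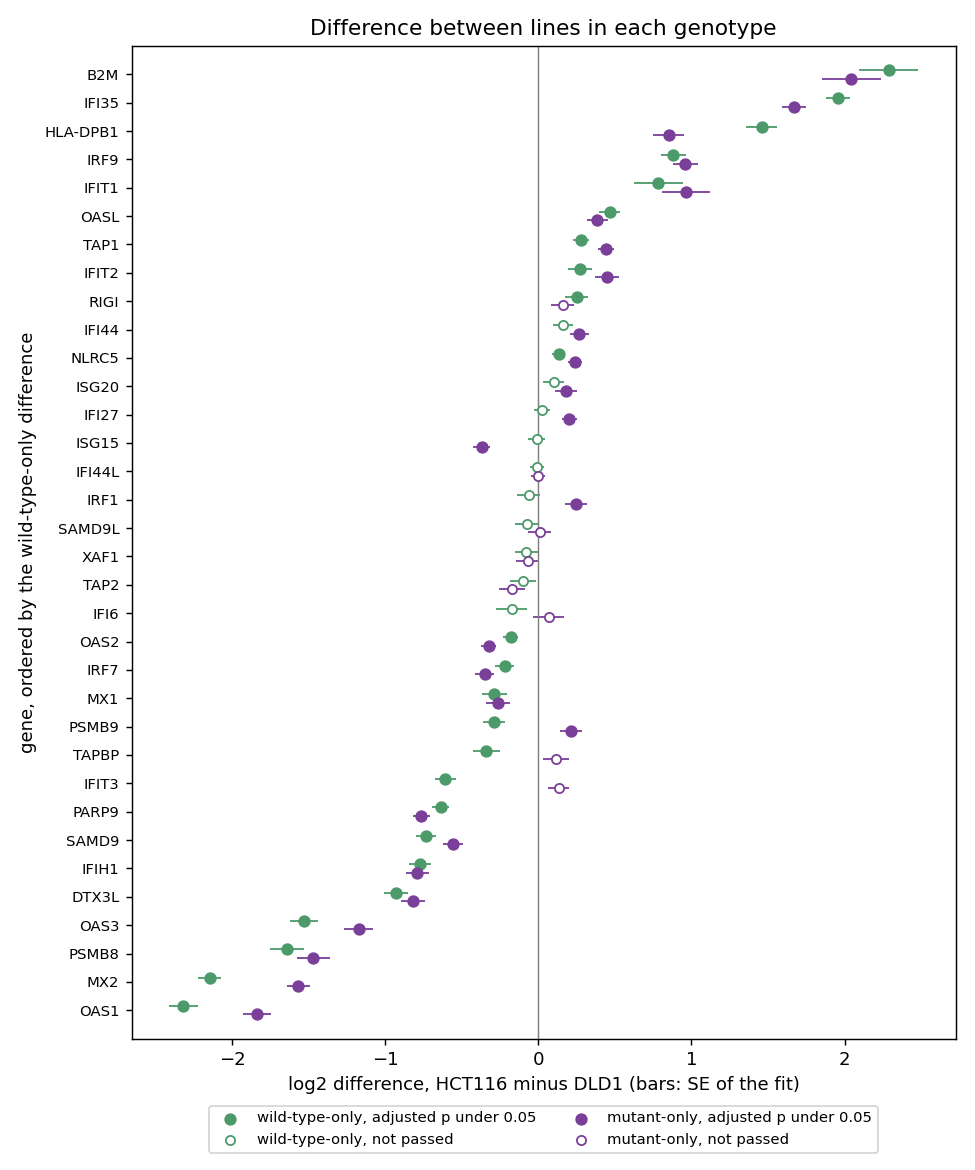
Difference between the cell lines for each of the 34 genes, HCT116 minus DLD1 on the log2 scale, between wild-type-only cells (green) and between mutant-only cells (purple); bars are the standard error of the fit and filled points passed at an adjusted p under 0.05. Differences run from -2.32 for OAS1 to 2.29 for B2M, and PSMB9 is filled on both sides of 0.

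Some members were called between the lines in a single genotype. IFIT3, RIGI and TAPBP passed between wild-type-only cells and not between mutant-only cells. ISG20, IFI27, IFI44, ISG15 and IRF1 passed between mutant-only cells and not between wild-type-only cells. With the replicate block IFI44 also passed between wild-type-only cells (0.16, adjusted p = 0.00773), and IFIT3 (0.13, adjusted p = 0.0334) and RIGI (0.16, adjusted p = 0.0231) between mutant-only cells, which leaves TAPBP, ISG20, IFI27, ISG15 and IRF1 in these lists. IFI44 passed between wild-type-only cells also (between 0.0318 and 0.0489) without HCT116 mutant-only replicate 2 or 3 or replicate 3 of either DLD1 group. With replicate 3 of HCT116 wild-type-only left out, RIGI no longer passed between wild-type-only cells (0.0595) and passed between mutant-only cells (0.0398). It also passed between mutant-only cells after quantile normalization (0.0404). The ISG20 call was lost in 9 of the 12 fits that leave out an array, all but those that leave out replicate 1 or 3 of HCT116 wild-type-only or replicate 1 of DLD1 mutant-only (between 0.0515 and 0.228), and after quantile normalization (0.224). The IRF1 call was lost without HCT116 mutant-only replicate 1 (0.0595) or DLD1 mutant-only replicate 3 (0.073).

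ISG15 differed by -0.01 between wild-type-only cells (adjusted p = 0.911) and was 1.29-fold lower in HCT116 between mutant-only cells (log2 difference -0.37, adjusted p = 6.9e-05). IFIT3 was lower in HCT116 between wild-type-only cells (-0.61, adjusted p = 4.53e-06) and not called between mutant-only cells (0.13, adjusted p = 0.132). For IFIT3, TAPBP and ISG15 the test of the difference is the test of unequal genotype changes given above. For RIGI, ISG20, IFI27, IFI44 and IRF1 that test did not pass. The IRF1 difference passed without DLD1 mutant-only replicate 1 (0.38, adjusted p = 0.0441).

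Other genes of the pathway were read from 5 lists of named genes, whose median changes lay between 0.01 and 0.05 in HCT116 and between -0.06 and 0.01 in DLD1, against the medians of all genes given above. Among 15 measured genes of the receptors, kinases, STATs and their inhibitors, 0 passed in HCT116 (3 had an unadjusted p under 0.05, all higher) and 1 fell in DLD1. That gene was IFNGR2, a chain of the interferon-gamma receptor, which read 9.50, 9.45 and 9.67 in DLD1 wild-type-only and 9.18, 9.19 and 9.32 in mutant-only cells (change -0.31, SE 0.0622, adjusted p = 0.00755). Among 12 measured interferon genes 0 passed in either line (1 in HCT116 and 0 in DLD1 at an unadjusted p under 0.05), and 10 of the 12 lay below the 40th percentile of all genes.

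Among 14 genes that sense RNA or DNA or relay that signal, 3 rose and 1 fell in HCT116 (28.6%, against 6.16% of all genes), and 0 rose and 2 fell in DLD1 (14.3%, against 8.77%; 1 was higher at an unadjusted p under 0.05). CGAS, the enzyme that makes cyclic GMP-AMP on cytosolic DNA, read 6.60, 6.57 and 6.67 in DLD1 wild-type-only and 5.42, 5.52 and 5.51 in DLD1 mutant-only cells. It fell 2.19-fold (log2 change -1.13, SE 0.0533, adjusted p = 3.71e-08), and group means in HCT116 were 5.28 and 5.34. All of these levels lie below the 40th percentile of all genes. Signal over background was not assessed, so the fold may be a lower bound. The same holds for the HCT116 group means of IFI16, GBP2, TNFSF10 and HLA-DOB given below. STING1, the receptor for cyclic GMP-AMP, fell in DLD1 too, from 8.64 to 8.25 (change -0.38, adjusted p = 0.0102). In HCT116, IFI16, a nuclear DNA sensor, read 5.60, 5.64 and 5.71 in wild-type-only and 5.03, 4.96 and 5.09 in mutant-only cells (change -0.63, SE 0.0533, adjusted p = 9.01e-06). TLR3, the endosomal receptor for double-stranded RNA, rose from 8.06, 8.17 and 8.16 to 8.82, 8.58 and 8.61 (change 0.54, SE 0.0641, adjusted p = 0.000174). MAVS, the adaptor below RIGI and IFIH1, rose by 0.21 (adjusted p = 0.0411), a call lost after quantile normalization (0.063), with the HCT116 arrays alone (0.109), and (between 0.0514 and 0.147) without any HCT116 wild-type-only replicate, HCT116 mutant-only replicate 1 or 3, DLD1 wild-type-only replicate 1 or 2, or any DLD1 mutant-only replicate.

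Among 38 other interferon-induced genes, 3 rose and 4 fell in HCT116, and 2 rose and 2 fell in DLD1. These are 18.4% of the list in HCT116, against 6.16% of all genes, and 10.5% in DLD1, against 8.77%. In HCT116 the guanylate-binding protein GBP2 fell from 6.56 to 5.95 (change -0.61, SE 0.0963, adjusted p = 0.00185), the scramblase PLSCR1 from 9.11 to 8.71 (change -0.40, adjusted p = 0.00349) and TNFSF10, the death ligand TRAIL, from 6.98 to 6.42 (change -0.55, adjusted p = 0.0114). In DLD1 TNFSF10 went the other way, from 7.33 to 7.76 (change 0.43, adjusted p = 0.0352), and GBP3 fell from 8.02 to 7.48 (change -0.54, adjusted p = 0.00134). PARP12, an ADP-ribosyltransferase, rose in DLD1 by 0.28 (adjusted p = 0.017). It was called higher in HCT116 mutant-only cells as well, by 0.26. The TNFSF10 call in HCT116 was lost with the HCT116 arrays alone (adjusted p = 0.0603) and when replicate 1 of HCT116 wild-type-only was left out (0.0551), and in DLD1 without any single DLD1 array (between 0.0569 and 0.119). The PARP12 call in DLD1 was lost (between 0.0644 and 0.0688) without DLD1 wild-type-only replicate 1 or 3 or DLD1 mutant-only replicate 2 or 3.

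Among 23 other antigen presentation genes, 1 rose and 1 fell in HCT116 and 0 rose and 1 fell in DLD1 (8.7% against 6.16% of all genes, and 4.35% against 8.77%; 3 were higher in DLD1 at an unadjusted p under 0.05). MICA, a stress ligand for natural killer cells, rose in HCT116 from 8.75 to 9.03 (change 0.29, adjusted p = 0.0128). HLA-DOB, a class II chain that tempers peptide loading, fell in HCT116 from 7.34 to 6.84 (change -0.50, adjusted p = 0.00746). In DLD1 the HLA-DOB change was -0.29 and did not pass in the main fit. There it passed with the replicate block (adjusted p = 0.0466), with the DLD1 arrays alone (0.0284) and without HCT116 mutant-only replicate 1 (0.0146). PSME1, a subunit of the proteasome activator that interferon-gamma induces, fell in DLD1 from 11.03 to 10.74 (change -0.29, adjusted p = 0.021). The MICA call was lost with the HCT116 arrays alone (adjusted p = 0.0536) and when replicate 1 of the HCT116 wild-type-only (0.057) or of the mutant-only group (0.0644) was left out. PSME1 did not pass without replicate 1 (0.0698) or 3 (0.0834) of DLD1 wild-type-only or DLD1 mutant-only replicate 1 (0.0993) or 3 (0.0506).

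The authors' deposited table for each line lists 35 and 44 transcript clusters selected with a fold cut-off of 2, and 0 of these belong to the genes described here. Among the clusters used, 1 per member, the largest change between genotypes was 1.63-fold, for MX2 in DLD1. An exact permutation test of 3 against 3 arrays cannot go below p = 0.1, so single genes were tested only within the fit over all genes.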

How the data were processed

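Values on the log2 scale came as deposited by the authors, for 28869 transcript clusters; how they were summarised and normalized is not given in the sources used here. Per the file headers, the authors' deposited tables hold an unadjusted p-value and a fold ratio for selected clusters, on hg19 annotation, and were used only to look for members. Clusters with 1 symbol (19310 clusters, 18377 genes) were kept, with the highest mean per gene. Group means of all 12 arrays were fitted with limma 3.58.1 in R 4.3.3 (lmFit, eBayes; 8 residual and 5.17 prior degrees of freedom), with Benjamini-Hochberg adjustment over all genes; the script was tested on simulated data. The number of arrays limits the precision.

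The members and lists were chosen with earlier results of these data known. Values on every array are given for members called between genotypes or in the difference, and for the 6 with the largest difference between wild-type-only lines. From each list of other genes, up to 3 called genes per comparison are named by smallest adjusted p. PARP12 in HCT116 is given in addition, because it is named for DLD1. IFIT1 and OAS3 in HCT116, DTX3L, IRF1 and other members that did not pass were picked for mention after their values were seen. Replicate numbers were checked as pairs: arrays of the same line and number deviated together (r from 0.129 to 0.462, 6 pairs), as did those of the same genotype and number across lines (0.114 to 0.407, 6 pairs), so the block is given where it changed a member's call. Across 17 settings, the cluster rule, a filter on dim genes (40th percentile), quantile normalization, the block, each line alone and each array left out were tried. The targeted gene itself is left out here.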

Additional observations from a re-analysis of the deposited data

Results flagged for a closer look

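The change between genotypes differed between the lines (log2 change in HCT116 minus that in DLD1, tested in limma's fit) for 7 of the 34 members. This is 20.6%, against 7.11% of all genes. The difference was 0.74 for IFIT3 (adjusted p = 0.000398), 0.58 for MX2 (0.00397), 0.50 for PSMB9 (0.00676), 0.48 for OAS1 (0.0408) and 0.45 for TAPBP (0.0435), which fell in DLD1 and did not pass in HCT116. It was -0.61 for HLA-DPB1 (0.0204) and -0.36 for ISG15 (0.0137), which fell in HCT116 and did not pass in DLD1. The differences for OAS1, TAPBP and HLA-DPB1 were lost under several of the alternative fits, as given above.

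Other pathway genes named above also differed in this test. CGAS differed by 1.20 (adjusted p = 1.12e-06), STING1 by 0.45 (0.0324), GBP3 by 0.48 (0.0269) and IFNGR2 by 0.33 (0.0365), with the fall in DLD1. The IFNGR2 difference was lost (between 0.0564 and 0.0954) when any 1 array other than DLD1 wild-type-only replicate 2 or DLD1 mutant-only replicate 3 was left out. The STING1 difference was lost after quantile normalization (0.0619) and (between 0.0523 and 0.0792) when any 1 array other than HCT116 wild-type-only replicate 1, HCT116 mutant-only replicate 2 or DLD1 mutant-only replicate 3 was left out. The GBP3 difference was lost (between 0.0506 and 0.0751) when any 1 array other than HCT116 wild-type-only replicate 3, HCT116 mutant-only replicate 1, DLD1 wild-type-only replicate 3 or DLD1 mutant-only replicate 3 was left out. GBP2 differed by -0.64 (0.0117; -0.40 and 0.0559 with the mean of its clusters), IFI16 by -0.64 (0.000157) and PLSCR1 by -0.47 (0.00909), with the fall in HCT116. TLR3 differed by 0.57 (0.00175) and MICA by 0.40 (0.0122), which rose in HCT116. TNFSF10 differed by -0.98 (0.00223), falling in HCT116 and rising in DLD1.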

How the results depend on the processing

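The 15 calls on members between genotypes and in the difference were recomputed under each alternative, giving 242 values: 205 stayed past the threshold, 37 did not, and 0 turned sign. The members called were 3 in HCT116, 5 in DLD1, 7 in the difference, 24 between wild-type-only lines and 26 between mutant-only lines. Without dim genes, which leaves 19 members in the fit, these became 3, 3, 4, 15 and 15. HLA-DPB1, IFIT3 and MX2 were among the dim genes left out, and IRF1 was gained in HCT116 (adjusted p = 0.0431). With the mean of all clusters the counts were 3, 5, 7, 24 and 26, after quantile normalization 4, 7, 6, 23 and 25, and with each line alone 2 in HCT116 and 5 in DLD1. Leaving out each array in turn gave 2 to 4, 4 to 6, 4 to 7, 21 to 25 and 22 to 27; the lowest count for the difference came without HCT116 mutant-only replicate 1. With the replicate block the counts were 4, 6, 8, 26 and 29, and it changed no member's call other than those of OAS3 and DTX3L between genotypes, OAS3 in the difference, and IFI6, IFI44, IFIT3, RIGI and TAP2 between lines.

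Over all genes, the calls in HCT116 numbered 1132, and 1808 with the block, 665 with HCT116 alone, 694 without HCT116 wild-type-only replicate 1 and 681 without HCT116 mutant-only replicate 1. In DLD1 they numbered 1612, and 2482 with the block, 939 without DLD1 wild-type-only replicate 1, and 1034 and 1062 without DLD1 mutant-only replicates 1 and 3. For the difference they numbered 1307, and 2077 with the block.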
